A study of Homo sapiens with 20 samples.

Results

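H3K27ac, the acetylation of lysine 27 on histone H3 that marks active promoters and enhancers, was examined around 6 genes of the AP-1 family: JUN, JUNB, FOS, FOSL1, FOSL2 and ATF3. Each gene was represented by a fixed hg19 window, and every peak that overlapped the window by 1 bp or more was a member. The windows were chr1:59050001-59400000 for JUN (350 kb), chr19:12880001-12930000 for JUNB (50 kb), chr14:75680001-75820000 for FOS (140 kb), chr11:65620001-65700000 for FOSL1 (80 kb), chr2:28520001-28700000 for FOSL2 (180 kb) and chr1:212680001-212850000 for ATF3 (170 kb). Overlapping peaks of the libraries were merged, and 181 of the 167933 merged regions of the genome lay in the windows: 7 in the JUN window, 14 in JUNB, 51 in FOS, 36 in FOSL1, 37 in FOSL2 and 36 in ATF3.

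The cells were G401, an established human rhabdoid tumour line with the genotype SMARCB1(-/-), in which doxycycline induced either GFP, the control, or SMARCB1. SMARCB1 is a core member of SWI/SNF, a family of ATP-driven complexes that slide and evict nucleosomes, and its loss defines rhabdoid tumours. All groups therefore share the SMARCB1 deletion and an induced transgene. Among the 20 samples in 10 groups of 2, the 4 H3K27ac libraries were compared, 2 with GFP and 2 with SMARCB1. The other 16 samples (H3K4me3, H3K4me1, SMARCA4 and input) were not analysed here. The labels do not say whether replicates came from separate cultures or clones, so the tests measure only the spread between these libraries, which may be technical. Differences between the groups were tested by exact permutation of the 4 libraries (two-sided), for which the smallest possible p is 0.333, so no difference below could pass a threshold of 0.05.

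AP-1 is a family of dimeric transcription factors whose subunits pair through a leucine zipper and contact DNA through an adjoining basic region. JUN and JUNB form dimers with each other or with FOS, FOSL1 and FOSL2, and these dimers bind the TPA response element, TGACTCA. FOS, JUN, JUNB and ATF3 are immediate early or stress response genes, transcribed within minutes of a stimulus, while FOSL1 and FOSL2 are typically induced later and more stably. AP-1 proteins occupy many enhancers and are known to recruit SWI/SNF complexes to them.

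Promoter stretches are shown first because several of these genes are known to be controlled by AP-1 and related factors through their own promoters. RefSeq promoters of GRCh38.p14, from 250 bases before to 50 bases from the start site, matched 5 of the 6 genes, with 2 promoters for ATF3, and FOSL1 was not matched. Stretches are printed 5′ to 3′ on the gene's strand, with positions counted from +1 at the start site. They lie at chr1:58784048-58784147 on the minus strand for JUN (-100 to -1), and on the plus strand at chr1:212565257-212565357 for the first ATF3 promoter (-150 to -50), chr2:28392758-28392877 for FOSL2 (-100 to +20), chr14:75278728-75278827 for FOS (-100 to -1) and chr19:12791386-12791485 for JUNB (-100 to -1). These GRCh38 positions cannot be set against the hg19 peaks. Capitals mark TGACATCA in JUN and ATF3, TGACTCA in FOSL2 and TATAAA in FOS and JUNB.
JUN: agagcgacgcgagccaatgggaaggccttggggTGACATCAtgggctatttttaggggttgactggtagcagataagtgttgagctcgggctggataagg
ATF3: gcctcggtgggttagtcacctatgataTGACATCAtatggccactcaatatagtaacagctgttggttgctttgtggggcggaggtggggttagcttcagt
FOSL2: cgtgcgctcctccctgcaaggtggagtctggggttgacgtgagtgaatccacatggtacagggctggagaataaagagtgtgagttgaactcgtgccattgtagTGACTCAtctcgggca
FOS: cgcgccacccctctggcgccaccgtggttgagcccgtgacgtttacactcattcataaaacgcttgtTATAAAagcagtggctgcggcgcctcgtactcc
JUNB: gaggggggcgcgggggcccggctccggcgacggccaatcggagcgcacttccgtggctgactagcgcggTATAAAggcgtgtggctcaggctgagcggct

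Both strands of all 6 promoters were searched for the TPA response element TGACTCA, for TGACGTCA, the cAMP response element, and for TGACATCA, a variant of it. The TATA box, by its letters TATAAA, and the CArG box, the site of serum response factor, were searched too. TGACATCA was added after the sequences had been seen. It lay at -67 to -60 in JUN and at -123 to -116 in the first ATF3 promoter, and 2.61% of the 35116 RefSeq promoters held it. TGACTCA lay at +5 to +11 in FOSL2, against 4.95% of all promoters. TATAAA lay at -33 to -28 in FOS, at -31 to -26 in JUNB and at -230 to -225 in the second ATF3 promoter, against 11.5%. TGACGTCA (1.85% of all promoters) and the CArG box (1.29%) were not among the letters of these windows. Promoters of JUNB (71% G or C), FOSL2 (68.7%), FOS (64.7%) and JUN (62%) lay above the median of 58.7%. The 2 matched ATF3 promoters lay below that median at 48% and 46.3%. Any further start site of these genes was not searched.

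The lists held 79555 to 98251 peaks with GFP and 135472 to 145533 with SMARCB1, of which 127 to 166 lay in the windows (0.104% to 0.160% of a list). Read totals were not in the files. The background expected at a summit, recovered from each peak's fold enrichment and p-value, stood in for depth and was 1.82 fragments in GFP replicate 1, against 3.74 to 4.09 in the other libraries. For SMARCB1 replicate 1 this background is in units scaled by 0.855, so its 4.09 understates depth beside the other libraries. Summit fragments of that library are given unscaled. Fold enrichment and super-enhancer marks are the authors' values. Fold enrichment is the pileup at a summit over the local background and is compared between libraries only as the percent of the same list's peaks at or below it. Gene starts were not placed on hg19 here. Peaks are therefore named by position, and nearness to a start site is read from the authors' tables of stitched regions, which left out peaks near transcription start sites. The same site could be in the table of one library and out of that of another, so this is a rough guide.

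The FOS window carried less H3K27ac in the SMARCB1 libraries. FOS encodes the prototype dimer partner of JUN and is silent or low in most resting cells. Peaks covered 42.4 kb and 42.6 kb of the window in GFP replicates 1 and 2, and 21.2 kb and 17.6 kb in SMARCB1 replicates 1 and 2. The groups did not overlap: the highest SMARCB1 library lay 21.2 kb below the lowest GFP library. The means were 42.5 ± 0.176 kb with GFP and 19.4 ± 2.54 kb with SMARCB1 (SD, n = 2), a difference of -23.1 kb or a ratio of 0.456 (p = 0.333, two-sided exact permutation test). Among 8977 genome tiles of 140 kb, 18.7% were lower in both SMARCB1 lists, and the median difference over tiles was 0.836 kb, higher with SMARCB1. The median covered length of these tiles was 3.19 kb with GFP and 5.09 kb with SMARCB1, so a typical tile had too little coverage to lose as much. Peak numbers in the FOS window were also lower with SMARCB1, with 42 and 48 peaks in the GFP lists and 32 and 30 in the SMARCB1 lists. With the strongest 79555 peaks taken from every list, the FOS window covered 41.5 and 42.6 kb with GFP and 18.1 and 16.3 kb with SMARCB1.

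**Figure D1:**
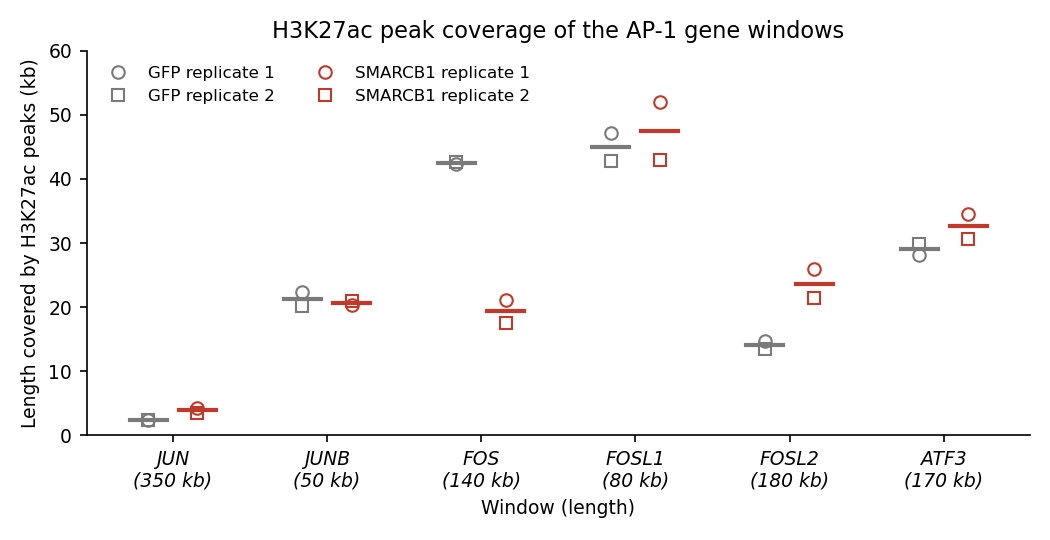
Length covered by H3K27ac peaks in each AP-1 family window (y axis, kb), with a point for each library and a line at each group mean. The FOS window shows the widest gap between the groups, at 42.4 and 42.6 kb with GFP against 21.2 and 17.6 kb with SMARCB1, while the FOSL2 window lay the other way, at 14.7 and 13.4 kb against 25.9 and 21.3 kb.

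At single-base level, 34.4 kb of the FOS window was covered in both GFP libraries, and 15.1 kb of it (44.0%) was covered in neither SMARCB1 library. Over the whole genome that share was 13.8%. Of the bases covered in both SMARCB1 libraries in the FOS window, 1.79% were uncovered in both GFP libraries, against 27.9% for the genome. The share of FOS bases lost was 47.8% with equal numbers of peaks (genome 16.6%) and lay between 48.7% and 56.6% when any library was left out (genome 16.4% to 22.7%). Leaving out GFP replicate 1, whose background was the lowest, gave 52.1% (genome 18.4%). Shared over combined length, the base-pair Jaccard index, was 0.680 for the pair of GFP libraries, 0.577 for the pair of SMARCB1 libraries and 0.334 to 0.418 for pairs across groups in this window.

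**Figure D2:**
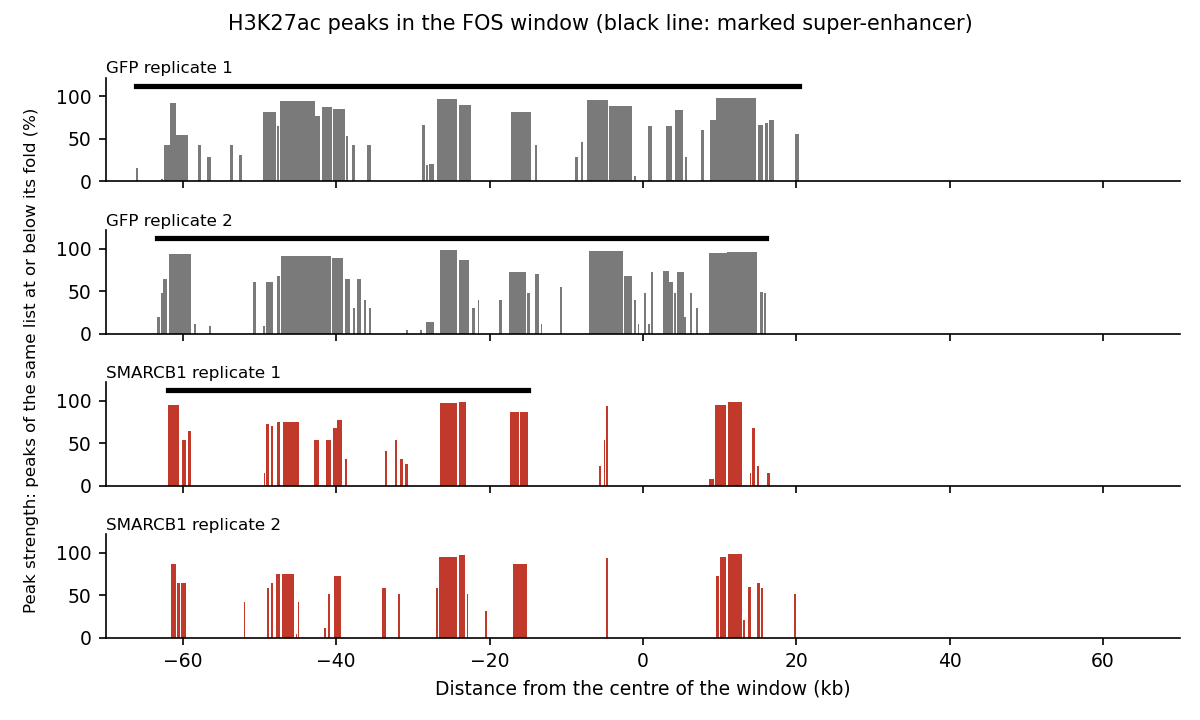
H3K27ac peaks across the FOS window in the 4 libraries, with distance from the window's centre (kb) on the x axis and height as the percent of the same list's peaks at or below the peak's fold enrichment. Several blocks that are wide in both GFP libraries are narrow in both SMARCB1 libraries, such as the one just left of the centre that covers 5792 and 5429 bp in the former and 708 and 238 bp in the latter, and black lines mark the authors' super-enhancers.

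A region was called lost when both GFP lists and neither SMARCB1 list had a peak in it, and gained in the opposite case. In the FOS window 11 of 51 regions (21.6%) were lost, against 3.94% of all regions, and 1 was gained (chr14:75715932-75716625), against 17.5%. With equal numbers of peaks 11 of 49 were lost and 0 gained, against 8.12% and 11.4% of all regions. The longest lost FOS region, chr14:75752681-75755303, covered 2039 and 2285 bp in GFP replicates 1 and 2 at a fold enrichment of 9.56 and 5.28, at or above 84.1% and 74.0% of the peaks of each list. Next by the lower of both folds were chr14:75750626-75751305 (fold 5.31 and 5.07, from 14 and 23 summit fragments) and chr14:75735898-75736460 (4.25 and 4.95, from 11 and 25 fragments).

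Shared H3K27ac sites in the FOS window were mostly narrower with SMARCB1. Of its 10 regions with a peak in every list, 8 were narrower in both SMARCB1 lists than in both GFP lists and 0 were wider. Genome-wide, 28.9% of 27997 such regions were narrower and 30.3% were wider. The median log2 ratio of mean covered length, SMARCB1 over GFP, was -0.66 over the FOS regions and -0.00456 over the genome.

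The region chr14:75742709-75748568, 5860 bp long and chosen after its values were seen, covered 5792 and 5429 bp in GFP replicates 1 and 2 and 708 and 238 bp in SMARCB1 replicates 1 and 2. Its SMARCB1 mean of 473 bp was 8.43% of the GFP mean of 5610.5 bp. The summits of all 4 libraries nevertheless fell within 13 bp of each other, from position 75745349 to 75745362. Summits ranked high in every list: fold enrichment was 20.9, 14.2, 10.3 and 9.57 in GFP replicates 1 and 2 and SMARCB1 replicates 1 and 2, at or above 95.8%, 96.8%, 94.1% and 94.3% of the peaks of each list. The summit held 65 and 76 fragments with GFP and 71 and 54 with SMARCB1. What remained in the SMARCB1 lists around this summit was a peak at chr14:75745243-75745483 in replicate 1 and at chr14:75745238-75745475 in replicate 2. The authors' tables held the wide GFP peaks here inside a stitched region and left out the narrow SMARCB1 peaks. As the summits coincided, being in a table did not settle how near this site was to a start site. Of 3183 shared regions covering at least 5 kb in both GFP lists, 30 were narrower to the same degree or more, by the higher SMARCB1 over the lower GFP length (13.0% here).

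The strongest FOS sites of the SMARCB1 lists were also GFP sites. The region chr14:75758670-75764839 held the highest fold of the window in both SMARCB1 lists, 15.6 and 13.3, at or above 99.0% and 98.5% of their peaks, and its fold was at or above 97.8% and 95.8% in the GFP lists. Its covered length was 5868 and 6107 bp in the GFP lists, against 4481 and 3762 bp in the SMARCB1 lists. The region chr14:75722967-75725757 did not separate the groups in extent, at 2549 and 2149 bp in the GFP lists against 2277 and 2566 bp in the SMARCB1 lists, and its summits lay within 18 bp. In contrast, chr14:75702218-75709427 covered 6793 and 6875 bp in the GFP lists but 3753 and 2924 bp in the SMARCB1 lists, and its fold was at or above 94.3% and 91.4% of the peaks with GFP and 75.2% and 75.4% with SMARCB1. FOS lies between TMED10 and LINC01220 in the RefSeq gene order, with the AP-1 relatives JDP2 and BATF beyond, so peaks of the window may belong to neighbouring genes.

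Super-enhancers are stretches of neighbouring enhancers that ROSE joins and ranks by signal. In GFP replicate 1 all 42 FOS peaks lay in 1 marked super-enhancer (chr14:75683967-75770297), and in GFP replicate 2 all 48 did (chr14:75686616-75766072). In SMARCB1 replicate 1 a shorter span was marked (chr14:75688020-75735006), and SMARCB1 replicate 2 had no mark in the window. The tables of SMARCB1 replicates 1 and 2 left out 6 and 5 FOS peaks, among them the highest fold of the window, and held 2 stitched regions each. The marks therefore do not compare the same sets of sites. Genome-wide the marks lay the other way, with 910 and 649 in the GFP tables and 2003 and 1521 in the SMARCB1 tables.

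FOSL2 encodes FRA-2, a FOS relative without a strong activation domain, and its window carried more H3K27ac in the SMARCB1 libraries. Peaks covered 14.7 and 13.4 kb in GFP replicates 1 and 2 and 25.9 and 21.3 kb in SMARCB1 replicates 1 and 2. The groups did not overlap, and SMARCB1 replicate 1 was the highest. Means were 14.1 ± 0.921 kb with GFP and 23.6 ± 3.25 kb with SMARCB1 (SD, n = 2), a difference of 9.57 kb or a ratio of 1.68 (p = 0.333, two-sided exact permutation test). Of 7512 tiles of 180 kb, 52.6% were higher in both SMARCB1 lists, with a median difference of 1.02 kb. The median covered length of these tiles was 3.77 kb with GFP and 6.09 kb with SMARCB1, so most held less H3K27ac than this window to begin with. The FOSL2 difference was 4.94 kb with equal numbers of peaks, and the groups still did not overlap. Peak numbers were 16 and 14 with GFP and 34 and 29 with SMARCB1, but 13 and 14 against 13 and 15 with equal numbers of peaks, where the groups overlapped.

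In the FOSL2 window 8 of 37 regions (21.6%) were gained and 0 were lost, against 17.5% and 3.94% of all regions. With equal numbers of peaks 1 of 15 (6.67%) was gained, against 11.4%, so the share of gained regions lay near or below that of the genome. Bases gained made up 26.5% of those covered in both SMARCB1 libraries, close to the 27.9% of the genome. Strongest by the lower of both folds were chr2:28581341-28581688 (fold 3.72 and 3.68 in SMARCB1 replicates 1 and 2), chr2:28581790-28582234 (3.59 and 3.68) and chr2:28582995-28583782 (3.44 and 3.31). These 3 lay together and rested on 17 to 24 summit fragments each. A further 23 regions (62.2%, against 49.9% of all regions) appeared in a single list. Of these, 15 were in SMARCB1 replicate 1 alone, whose list was the longest at 145533 peaks.

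A core of the FOSL2 window was present in every library. The region chr2:28615724-28619801 covered 4078, 4051, 4020 and 4042 bp in GFP replicates 1 and 2 and SMARCB1 replicates 1 and 2. Beside it, chr2:28612915-28615668 held the highest fold of the window in every list, at or above 96.5%, 93.5%, 96.4% and 94.9% of the peaks in the same order of libraries, with summits within 39 bp. On the other flank, chr2:28619857-28627117 covered 3867 and 4316 bp in the GFP lists but 7170 and 5858 bp in the SMARCB1 lists. Part of the longer coverage thus lay beside a core of near-equal length. All shared regions of the window covered 13.7 and 13.4 kb in the GFP lists and 17.5 and 15.9 kb in the SMARCB1 lists. The rest of the longer coverage lay outside them, in regions that some lists lacked. A single super-enhancer was marked in GFP replicate 1 (chr2:28605767-28633603) and in SMARCB1 replicate 2 (chr2:28613146-28636619), 2 in SMARCB1 replicate 1 (chr2:28612638-28636096 and chr2:28548528-28584484) and none in GFP replicate 2.

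**Figure D3:**
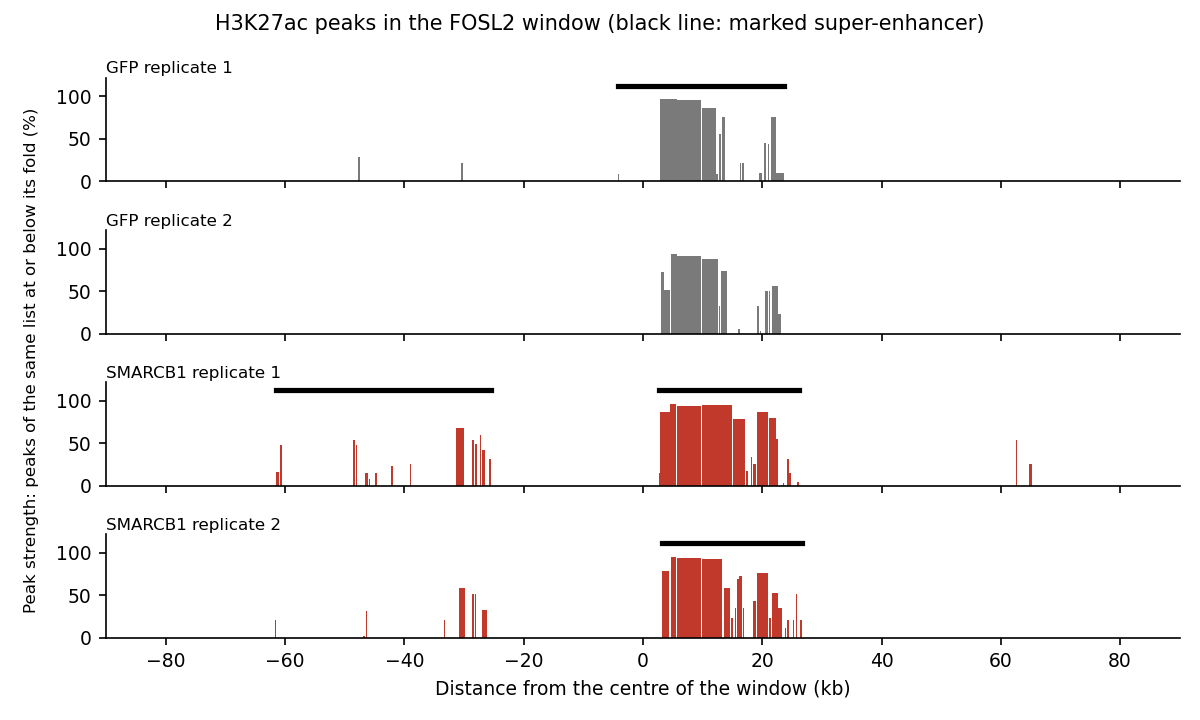
H3K27ac peaks across the FOSL2 window in the 4 libraries, drawn as for FOS. The core stands at the same place in every library, and both SMARCB1 libraries have further low peaks on either side of it, including the 8 gained regions.

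ATF3, a stress-induced member that pairs with JUN proteins and often represses its targets, differed less. Its window was covered over 28.2 and 29.8 kb in GFP replicates 1 and 2 and over 34.6 and 30.7 kb in SMARCB1 replicates 1 and 2. SMARCB1 replicate 2 lay 0.861 kb above GFP replicate 2, so the groups did not overlap. The means of 29.01 ± 1.16 and 32.6 ± 2.74 kb (SD, n = 2) differed by 3.62 kb (p = 0.333, two-sided exact permutation test), and 52.4% of 7785 tiles of 170 kb were higher in both SMARCB1 lists. With equal numbers of peaks the difference was 1.26 kb and the groups overlapped.

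The ATF3 window had 7 gained (19.4%) and 2 lost (5.56%) regions of 36, near the 17.5% and 3.94% of all regions. With equal numbers of peaks 4 (14.3%) were gained and 1 lost (3.57%) of 28, against 11.4% and 8.12%. Strongest of the gained were chr1:212841113-212841772 (fold 5.57 and 5.12 in SMARCB1 replicates 1 and 2), chr1:212739488-212740529 (4.39 and 5.12) and chr1:212789038-212789694 (3.84 and 3.68). The lost regions, chr1:212693506-212693912 and chr1:212695323-212695637, held 8 to 16 summit fragments. Near the first gained region, chr1:212838725-212839056 was the narrowest of the 47 shared regions at 332 bp, yet its fold was at or above 88.4% and 88.3% of the peaks with GFP and 95.4% and 93.9% with SMARCB1, and its 4 summits fell within 6 bp. The widest region of this window, chr1:212683004-212693426, covered 9372, 10106, 9370 and 8862 bp in GFP replicates 1 and 2 and SMARCB1 replicates 1 and 2. Every table marked 1 super-enhancer here, which began outside the window (chr1:212632633-212703732 in GFP replicate 1). BATF3, another AP-1 relative, is among the next genes in the RefSeq order.

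JUN, the strongest transactivator of the JUN proteins, had the longest window and the least H3K27ac. Peaks covered 2.32 and 2.45 kb with GFP and 4.33 and 3.49 kb with SMARCB1, which is 0.662% to 1.24% of the window. Both SMARCB1 libraries lay above both GFP libraries, with means of 2.38 ± 0.0940 and 3.91 ± 0.596 kb (SD, n = 2), a difference of 1.53 kb and a ratio of 1.64 (p = 0.333, two-sided exact permutation test). Of 4668 tiles of 350 kb, 54.8% were higher in both SMARCB1 lists, by a median of 1.74 kb over all tiles. The median covered length of these tiles was 6.01 kb with GFP and 10.1 kb with SMARCB1. Equal numbers of peaks left a JUN difference of 1.09 kb in the same direction.

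All H3K27ac in the JUN window of the GFP lists lay in 3 regions that every library shared, and all peaks in them were absent from the authors' tables of regions away from start sites. The strongest, chr1:59164121-59165757, covered 1064, 1359, 1613 and 1240 bp with fold at or above 94.6%, 92.6%, 94.8% and 93.9% of the peaks in GFP replicates 1 and 2 and SMARCB1 replicates 1 and 2. The others, chr1:59248722-59249708 and chr1:59250024-59250778, flank 315 bp that no list covered. The first covered 782, 553, 987 and 640 bp, without separating the groups. The second covered 470 and 537 bp in the GFP lists and was longer in both SMARCB1 lists, at 755 and 728 bp. Its fold was at or above 81.3% and 39.5% of peaks with GFP, and 94.8% and 93.1% with SMARCB1. Its summits held 22 and 16 fragments with GFP and 63 and 42 with SMARCB1. These counts are not corrected for depth, and the background there was 1.82 and 3.74 with GFP and 4.09 and 3.89 with SMARCB1. The only gained region of 7 (14.3%, against 17.5% of all regions) was chr1:59162591-59163221 (fold 3.72 and 3.27), and 0 were lost, against 3.94%.

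JUNB, which often opposes JUN in growth control, and FOSL1, which encodes FRA-1, showed no separation of the groups in covered length. The JUNB window was covered over 22.3 and 20.2 kb with GFP and 20.3 and 20.9 kb with SMARCB1, a difference of -0.669 kb (p = 1, two-sided exact permutation test). The FOSL1 window was covered over 47.1 and 42.7 kb with GFP and 52.0 and 42.9 kb with SMARCB1, a difference of 2.54 kb (p = 0.667, two-sided exact permutation test). With equal numbers of peaks JUNB was lower in both SMARCB1 lists, by 1.95 kb on average, and the FOSL1 difference was -0.555 kb. These were the most densely acetylated windows, with 40.5% to 44.6% of the JUNB window and 53.4% to 65.0% of the FOSL1 window under peaks, against 0.662% to 30.4% in the others.

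Of the 14 JUNB regions 1 was gained and 1 lost (7.14% each), and of the 36 FOSL1 regions likewise 1 and 1 (2.78% each), against 17.5% gained and 3.94% lost over all regions. In JUNB they were chr19:12915945-12916182 and chr19:12918026-12918266, in FOSL1 chr11:65635280-65635579 and chr11:65641726-65641952, and they were 227 to 300 bp long. In the JUNB window the broad domain chr19:12892146-12902161, likewise not assigned to a gene, covered 9861, 9693, 9857 and 9843 bp in GFP replicates 1 and 2 and SMARCB1 replicates 1 and 2. In the FOSL1 window the broad domain chr11:65678419-65689195, not assigned to a gene, covered 10301, 10366, 10377 and 10307 bp. Neither domain separated the groups. Neither window had a super-enhancer, and each of the 18 to 27 FOSL1 peaks in a table was an entry of its own. Both lie among closely spaced genes in the RefSeq order, such as HOOK2 and PRDX2 beside JUNB and CCDC85B and C11orf68 beside FOSL1.

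**Figure D4:**
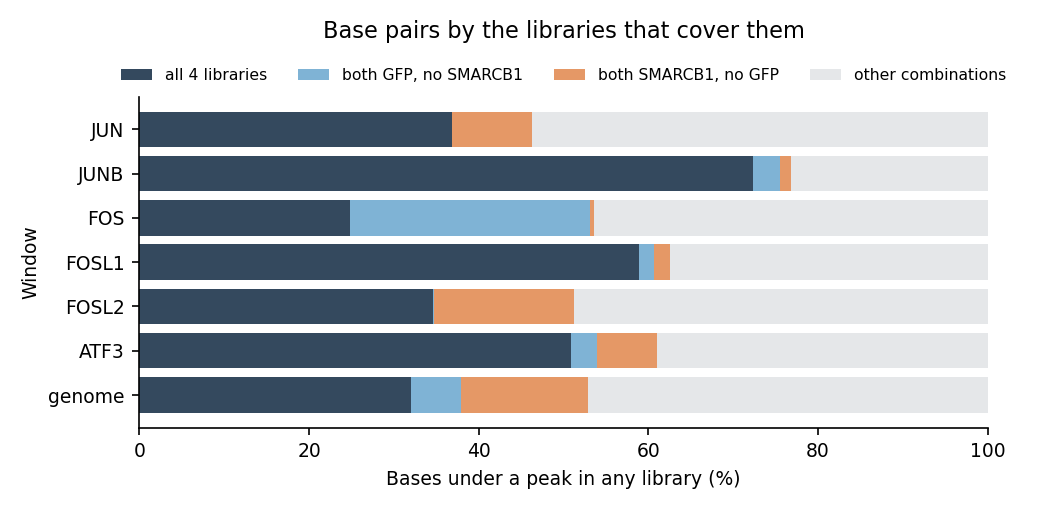
Bases under a peak in any library (x axis, percent) in each window and in the genome (y axis), by the libraries that cover them. Of the 6 windows, FOS has the most sequence covered in both GFP and no SMARCB1 library (15.1 kb) and FOSL2 the most in both SMARCB1 and no GFP library (4.92 kb), while most bases of JUNB and FOSL1 are covered in every library.

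Over the 6 windows together the total covered length did not separate the groups, at 157.0 and 151.3 kb with GFP and 158.3 and 136.9 kb with SMARCB1. Gained regions numbered 19 of 181 (10.5%, genome 17.5%) and lost regions 15 (8.29%, genome 3.94%), and 11 of the 15 lost were in the FOS window. Among the 132 regions left by equal numbers of peaks, 5 were gained (3.79%, genome 11.4%) and 14 lost (10.6%, genome 8.12%), so lost then outnumbered gained. The FOS window alone held 11 of these 14 lost regions and 0 of the gained. Leaving out 1 library gave 20 to 52 gained and 15 to 40 lost, with the most gained without SMARCB1 replicate 2 and the most lost without GFP replicate 1. The share over all regions was not computed with a library left out, so these counts have no genome value beside them. Gained and lost regions had median widths of 467 and 407 bp, against 2754 bp for the 47 regions shared by every library. Among these 47, 14 were narrower in both SMARCB1 lists (29.8%, genome 28.9%) and 9 wider (19.1%, genome 30.3%), and 8 of the 14 were in the FOS window.

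**Figure D5:**
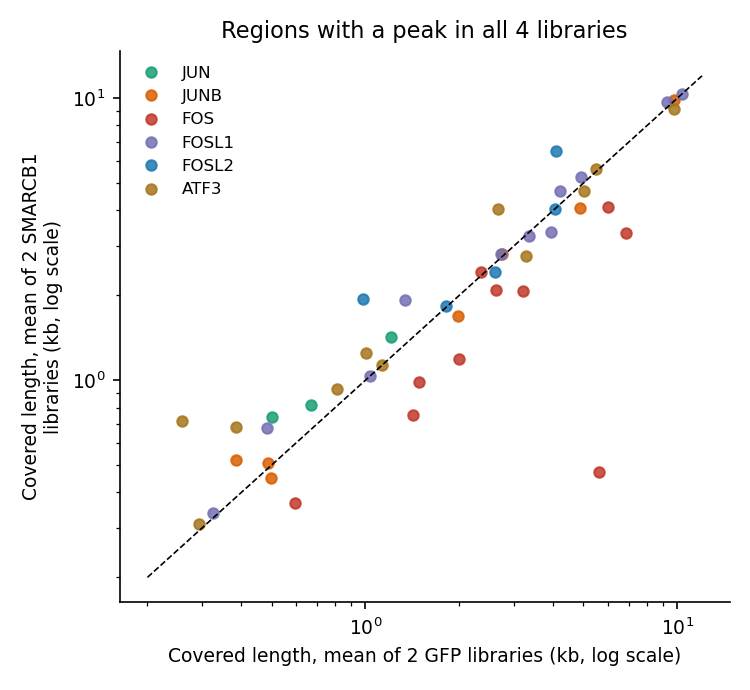
Mean covered length of the 47 regions shared by every library, GFP on the x axis and SMARCB1 on the y axis (kb, log scales), coloured by window, with a dashed line at equality. FOS regions lie mostly below the line, and the farthest point from it is the FOS region with means of 5610.5 bp (GFP) and 473 bp (SMARCB1).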

How the data were processed

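Peak lists and stitched-region tables of 4 H3K27ac libraries were used. Reads were aligned with BWA 0.7.12-r1039 and handled with SAMtools and bedtools, per the submitters' processing notes. Peaks were called with MACS2 on each library against hg19 and filtered, per the file headers and peak names. The caller's version, control and filter rule are not given in the sources used here. The deposited fold enrichment is a ratio of summit to background made by the authors, and the −log10 p and −log10 q values are also the authors'. The deposited score of a peak, its −log10 q scaled to a whole number by the authors' caller, was read but not used. ROSE joined peaks away from start sites within 12.5 kb, per the file headers. The deposited signal of the stitched regions was left out, as all entries of an ID carry an identical value. Each table was given to a library by its name and coordinates, with 100% of its region ends in that library's list and 0.211% to 1.31% in others. The tables also hold 4 per-sample columns that matched no sample by name, and these were left out.

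The members and lists were chosen with earlier results of these data known. All 6 genes are named. In each window the strongest and widest regions are named, with every gained and lost region where there were 5 or fewer of a kind, and otherwise the 3 with the highest lower fold. Overlap counted from 1 bp. Fragments and background were solved from fold and −log10 p within 0.001, which succeeded for 574 of 574 window peaks (100%), with fragments of SMARCB1 replicate 1 scaled by 0.855. The scripts were tested on simulated data. Depth is otherwise unknown, so no counting interval is given, and the number of libraries limits the precision. Scripts ran in Python 3.11.15 with pandas 2.3.3 and numpy 2.4.6. Tests used scipy 1.17.1, and figures matplotlib 3.10.9.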

Additional observations from a re-analysis of the deposited data

How the results depend on the processing

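Results were recomputed with peaks of −log10 q 5 or more, the same number of peaks (79555) from every list, peaks joined within 1 kb, peaks wholly inside a window and leaving out each library, and for region counts also with a reciprocal overlap of 50%. Those on bases and on the narrowed FOS region were added after seeing the data. Covered length at FOS stayed lower, and at JUN, FOSL2 and ATF3 higher, in the SMARCB1 mean under each setting run for it. Gained regions numbered 5 at the stricter q, 5 with equal numbers, 5 when joined and 30 with reciprocal overlap, and 20 to 52 without a library (52 without SMARCB1 replicate 2, 40 without SMARCB1 replicate 1). Lost regions numbered 4 at the stricter q, 2 when joined, 24 with reciprocal overlap and 15 to 40 without a library (40 without GFP replicate 1, 36 without GFP replicate 2). Apart from equal numbers of peaks, the share over all regions was not computed under these settings. Whether these counts moved more than the genome was therefore not tested. Differences in covered length without a library ranged from -24.9 to -21.3 kb at FOS, 7.27 to 11.9 at FOSL2, 1.68 to 5.56 at ATF3 and 1.11 to 1.95 at JUN. The JUNB difference was 0.807 kb when joined and -1.70 to 0.357 kb without a library (0.357 without GFP replicate 1). The FOSL1 difference was -0.555 kb with equal numbers and -1.99 to 7.07 kb without a library (-1.99 without SMARCB1 replicate 1). Over the 6 windows it was -6.51 kb, -20.1 kb with equal numbers and -17.2 to 4.18 kb without a library (4.18 without SMARCB1 replicate 2). Differences in peak number at JUNB were 3, -0.5 at the stricter q and -2 with equal numbers. At FOSL1 they were 2, -2 at the stricter q, -8.5 with equal numbers, -3 when joined and -5.5 to 9.5 without a library (-5.5 without SMARCB1 replicate 1, -3.5 without GFP replicate 2). Over the 6 windows they were 20, 1 at the stricter q, -27.5 with equal numbers, 3.5 when joined and 7.5 to 32.5 without a library. Without a library, peak number differences were -17 to -11 at FOS, 14 to 19 at FOSL2, 8 to 14 at ATF3, 2 to 4 at JUNB and 0.5 to 2.5 at JUN. With equal numbers of peaks they were -20 at FOS (-14 as reported), 0.5 at FOSL2 (16.5), 2.5 at ATF3 (11) and 0 at JUN (1.5). At the stricter q they were -9, 2.5, 9 and 1, and with joined peaks -1, 4, 2 and 1, in the same order. The bases gained at FOSL2, 4.92 kb, were 2.62 kb with equal numbers and 11.0 kb without SMARCB1 replicate 2. The cause of these changes was not tested, beyond the shorter lists and the looser demand on replicates that the settings themselves bring.

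Both groups have replicates 1 and 2 in the labels. With the replicate number as a block, the mean differences are the same by construction, and the differences of pairs 1 and 2 were 2.02 and 1.04 kb at JUN, -2.00 and 0.658 at JUNB, -21.2 and -25.0 at FOS, 4.88 and 0.201 at FOSL1, 11.2 and 7.92 at FOSL2, and 6.38 and 0.861 at ATF3. An exact sign-flip test over 2 pairs cannot give a p below 0.5. The log2 ratio of replicate 1 to 2 correlated between groups with r = 0.218 over 6815 tiles of 140 kb, which are not independent replicates, and no label ties the numbers to a shared batch, so the numbers are not shown to pair the samples.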
